A study of Mus musculus with 16 samples.

Results

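The response of control mouse fibroblasts to a proteasome inhibitor was measured on 8 of the 16 expression arrays in the series. Both groups were mouse embryonic fibroblasts, a cultured cell type that makes connective tissue matrix, of the line labelled wild type, which carries a scramble short hairpin RNA. In 1 group, 4 plates received 1 µM MG132 for 8 h, and in the other, 4 plates received the vehicle, DMSO. The remaining 8 arrays came from a line with stable expression of an Atf5 short hairpin RNA (Atf5 encodes a bZIP transcription factor), under the same pair of conditions. One probe set was kept per gene, which gave 19938 genes of the 35556 probe sets on the array, and the value of a gene is a log2 intensity, so that a difference of 1 is a 2-fold change.

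The proteasome is the barrel-shaped protease that degrades ubiquitin-tagged proteins, and MG132 is a peptide aldehyde that blocks its active sites. Cells with a blocked proteasome accumulate damaged and short-lived proteins. Several stress pathways are known to answer this: the heat shock response, which makes chaperones; the integrated stress response, in which ATF4 and its partners drive amino acid and survival genes; the NRF2 response to electrophiles and oxidants; and NRF1, which restores proteasome subunits. Signalling by NF-kappaB, a factor held back by inhibitor proteins that the proteasome destroys, is also known to depend on the proteasome.

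Of the 19938 genes, 3341 rose with MG132 (16.8%) and 3796 fell (19.04%) at an adjusted p under 0.05 in limma's test, so that 35.8% of all genes were called. Most changes were small. At least 2-fold, 61 genes rose (0.306%) and 67 fell (0.336%), and at least 4-fold, 10 genes rose and 1 fell. The median log2 fold change over all genes was 0.0275. Centring each array on its median moved that median to -0.025 and the split to 2150 higher and 4624 lower. Arrays of 1 group correlated at 0.9928 to 0.99789 across probe sets, and arrays of different groups at 0.98944 to 0.99341. Array medians lay between 7.74 and 7.82. Since the labels do not say that plates came from separate cultures, the p-values measure the spread between these plates, which may be technical.

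Calls were concentrated among bright genes. Genes were split by vehicle level into 4 bins. Of the 4987 genes in the lowest bin 312 rose and 59 fell, and of the 4982 in the highest 1363 rose (27.4%) and 1828 fell (36.7%). List counts below are to be read against these shares and those of all genes (16.8% higher, 19.04% lower). Changes of at least 2-fold numbered 3 up and 0 down in the lowest bin, and 33 up and 32 down in the bin next to the highest. Olfactory receptor genes, which serve smell in nasal neurons, had a median vehicle level of 5.335 and gave 67 higher and 3 lower of 1016. Those 67 became 42, 34 and 44 without vehicle array 2, vehicle array 3 or MG132 array 4, and 19 after median centring or a second quantile normalization. The 3 lower became 5 without vehicle array 2, 6 without MG132 array 4, and 0 without vehicle array 4 or MG132 array 2.

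**Figure D1:**
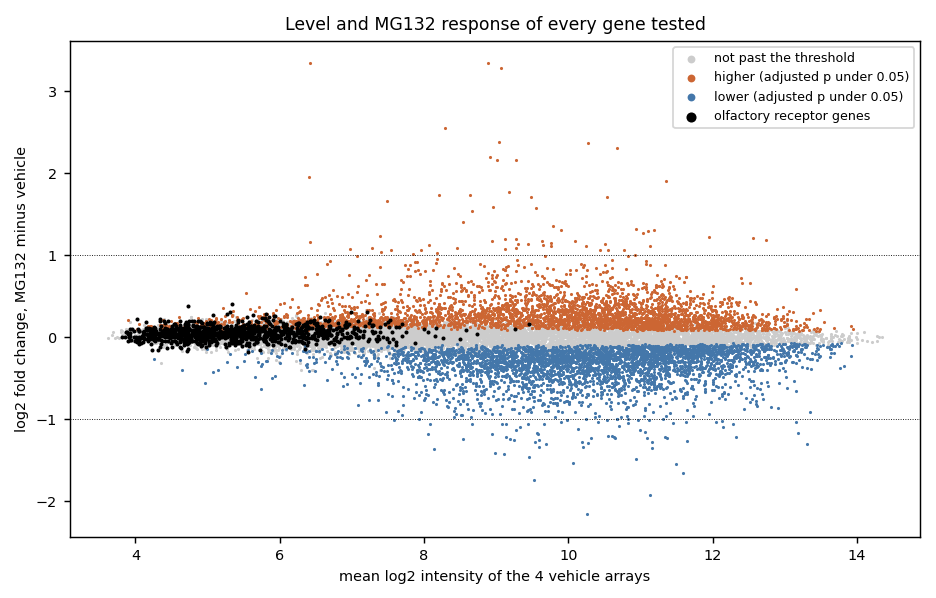
Every gene tested by the mean log2 intensity of the 4 vehicle arrays (x axis) and the log2 fold change of MG132 minus vehicle (y axis), with called genes coloured, olfactory receptor genes in black and dotted lines at 2-fold changes. The olfactory receptor genes lie near 0 at the dim end (range -0.18 to 0.40), while changes of 2-fold or more spread over brighter genes.

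Markers of the labelled cell type were present. Vim, which encodes the filament protein vimentin, averaged 14.2 on both sides. The mean of 13 fibroblast markers lay at 9.64 to 9.67 on the vehicle arrays and at 9.43 to 9.45 on the MG132 arrays, without overlap. Of these 13, 7 fell, among them the collagen genes Col1a1 and Col1a2, the receptor gene Pdgfrb and S100a4, and 1 rose, the receptor gene Pdgfra (0.70 ± 0.05). Marker lists of macrophages (11 genes), endothelium (10), epithelium (9) and skeletal muscle (9) had means between 6.74 and 7.74 on the vehicle arrays and between 6.81 and 7.79 on the MG132 arrays, with overlapping ranges for each list. The mean of smooth muscle markers lay at 9.35 to 9.44 on the vehicle arrays and 9.20 to 9.33 on the MG132 arrays, and neuron markers, Tubb3 among them, lay at 7.56 to 7.64 and 7.69 to 7.74, both without overlap. The part of other cell types in the results was not tested. Fewer cells of a type and less RNA per cell cannot be told apart in these bulk samples.

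The largest increase belonged to Slc7a11, the cystine importer that feeds glutathione synthesis. It read 8.81, 8.93, 8.93 and 8.86 on the 4 vehicle arrays and 12.19, 12.26, 12.23 and 12.21 on the 4 MG132 arrays, a log2 fold change of 3.34 ± 0.04 (SE) or 10.1-fold (adjusted p = 2.53e-18). All 4 MG132 arrays stood far above all 4 vehicle arrays. Hspa1a, the stress-inducible HSP70 chaperone, went from 8.99, 9.14, 9.09 and 9.02 to 12.27, 12.42, 12.38 and 12.31 (3.29 ± 0.06, 9.75-fold). Its neighbour Hspa1b is nearly identical in sequence, so the signal of this pair cannot be told apart here. Prl2c5, a proliferin of the prolactin family, went from 6.28, 6.55, 6.45 and 6.40 to 9.97, 9.79, 9.60 and 9.67 (3.34 ± 0.09), and its close paralogs make its identity uncertain.

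Stress regulators followed. Ddit3, which encodes the transcription factor CHOP, read 9.02, 8.99, 9.13 and 9.0 with vehicle and 11.41, 11.39, 11.37 and 11.48 with MG132 (2.38 ± 0.04, 5.2-fold). Atf3, a stress-induced bZIP factor, moved from 10.26, 10.24, 10.24 and 10.35 to 12.61, 12.63, 12.64 and 12.66 (2.36 ± 0.04, 5.14-fold). Both groups were tight and widely separated for each. The heme-degrading enzyme gene Hmox1 climbed from 10.75, 10.66, 10.64 and 10.63 to 12.97, 12.94, 13.00 and 12.99 (2.31 ± 0.04, 4.94-fold). Osgin1, an NRF2-responsive growth inhibitor, went from 9.04, 8.97, 9.0 and 9.05 to 11.17, 11.19, 11.15 and 11.19 (2.16 ± 0.04). Gadd45a, a growth-arrest gene, reached 11.09, 11.10, 11.15 and 11.13 from 8.99, 8.91, 8.86 and 8.92 (2.20 ± 0.03). Secreted proteins were also among the 12 largest increases: the chemokine genes Cxcl10 (2.54 ± 0.07) and Ccl2 (2.17 ± 0.05) and the carbonic anhydrase gene Car6 (1.95 ± 0.09). Hspb1, a small heat shock protein, completed the 12 with 1.91 ± 0.05.

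The decreases were smaller. Edn1, which encodes the vasoconstrictor peptide endothelin-1, had the largest, from 10.22, 10.21, 10.34 and 10.24 to 8.06, 8.19, 8.11 and 8.03, a 4.45-fold fall (adjusted p = 7.18e-16). Cldn1, a tight junction claudin, dropped from 11.05, 11.27, 11.02 and 11.16 to 9.24, 9.34, 9.42 and 8.83 (3.78-fold lower), with MG132 array 4 below the other 3. Mycn, a MYC-family transcription factor, went from 9.61, 9.61, 9.39 and 9.49 to 7.79, 7.67, 7.80 and 7.89 (3.33-fold lower). No array of 1 group reached into the other for these 3 genes. Adamts5, an aggrecan-degrading protease, went from 11.60, 11.58, 11.56 and 11.64 to 9.91, 10.04, 10.02 and 9.80 (3.14-fold lower). The serine protease gene Prss23 read 11.50, 11.46, 11.45 and 11.53 with vehicle and 9.87, 9.91, 10.02 and 9.94 with MG132 (2.93-fold lower). Egr1, an immediate-early zinc finger factor, went from 9.07, 9.10, 9.12 and 9.13 to 7.75, 7.60, 7.59 and 7.80 (2.68-fold lower). The rest of the 12 were the sulfatase gene Arsj (2.81-fold lower), Medag (2.76), the potassium channel gene Kcnf1 (2.67), the cytochrome gene Cyp1b1 (2.54), Klhdc8a (2.53) and the urokinase gene Plau (2.52).

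**Figure D2:**
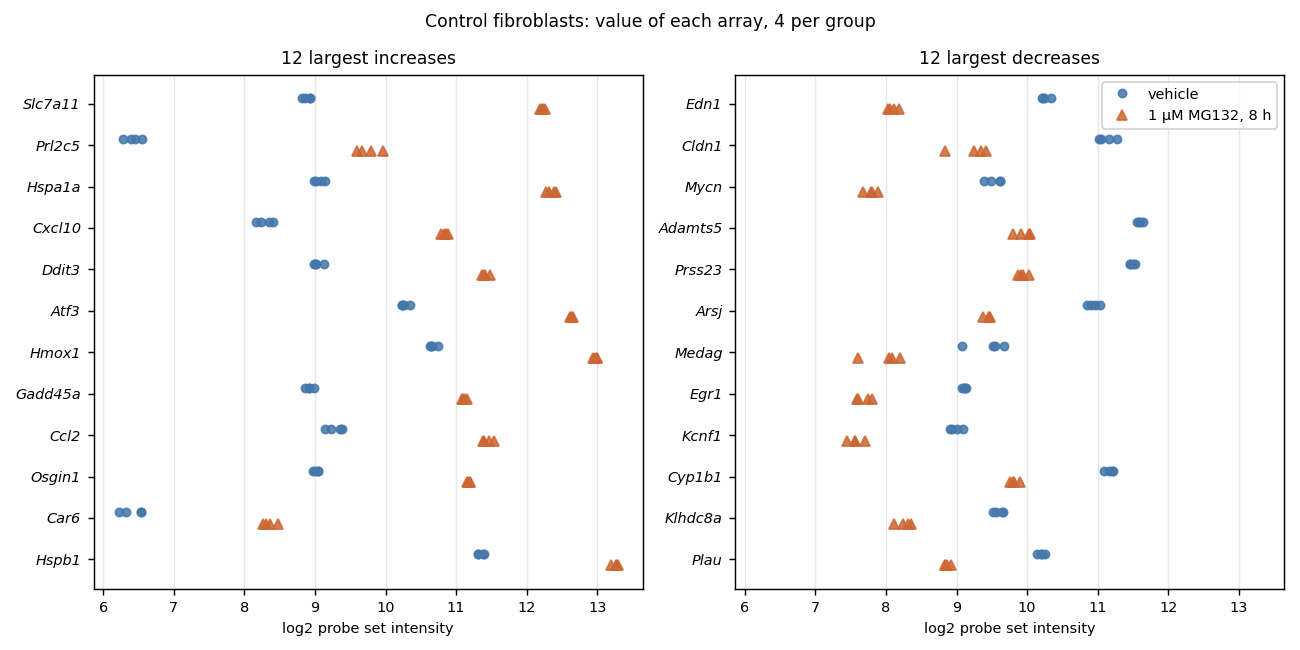
Log2 probe set intensity of each array (x axis) for the 12 largest increases and 12 largest decreases, with blue circles for the 4 vehicle arrays and orange triangles for the 4 MG132 arrays. The groups do not overlap for any of the 24 genes, which the choice of genes required (over all genes, the groups were apart with MG132 higher in 14.99% and lower in 17.9%); Slc7a11 moves from near 8.9 to near 12.2 and Edn1 from near 10.3 to near 8.1.

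More chaperone genes rose than fell in each list but that of TRiC and prefoldin, and many did not pass the test. The largest increases were those of Hspa1a, Hspb1 and Dnajb1. The heat shock factor HSF1 binds inverted repeats of a short unit, searched here as GAANNTTC and TTCNNGAA on both strands. Promoter windows of 300 bases (250 before to 50 after each RefSeq start, build GRCm38.p6) held either form in 15.4% of the 15614 tested genes that have a window. They held it in 5 of 11 small heat shock and BAG genes, 2 of 7 HSP70, HSP110 and HSP90 genes, 4 of 14 co-chaperone genes and 4 of 15 DNAJ genes. A match is a description of the letters and not a measured binding site. Dnajb1 rose without a match, and Hspb3 and Hspb6 held one and did not pass the test. The 4 stretches shown belong to chaperone genes with large increases, with the matches in capitals.
Hspa1a, chr17:34972213-34972300, minus strand: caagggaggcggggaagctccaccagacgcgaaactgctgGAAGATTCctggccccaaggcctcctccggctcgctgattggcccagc
Hspb1, chr5:135887762-135887869, plus strand: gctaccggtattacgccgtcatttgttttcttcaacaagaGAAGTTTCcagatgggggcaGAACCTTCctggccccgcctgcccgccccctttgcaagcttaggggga
Hsph1, chr5:149636322-149636409, minus strand: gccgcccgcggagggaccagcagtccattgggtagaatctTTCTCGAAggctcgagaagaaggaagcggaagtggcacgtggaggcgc
Dnaja4, chr9:54699429-54699554, plus strand: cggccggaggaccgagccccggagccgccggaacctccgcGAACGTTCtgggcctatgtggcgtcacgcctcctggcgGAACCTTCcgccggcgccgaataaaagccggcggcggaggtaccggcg

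Of the 10 measured genes of the HSP70, HSP110 and HSP90 families, which fold and refold proteins with ATP, 7 rose and 0 fell, and their median was 0.23. Below Hspa1a, Hsph1, a nucleotide exchange factor of HSP70, went from 11.92, 11.96, 11.95 and 11.94 to 13.20, 13.14, 13.19 and 13.15 (2.34-fold), and its relative Hspa4l rose by 0.99 ± 0.04. Smaller increases were those of Hspa2 (0.76), Hsp90aa1 (0.33), Hspa4 (0.13) and Hspa8, the everyday HSP70 (0.10). One member fell (count 1 in place of 0) after median centring, after a second quantile normalization, with array weights and without 4 of the 5 arrays at the low end of a within-group gradient.

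Among the partner genes of HSP70 and HSP90, 11 of 15 rose and 0 fell (7 and 1 after median centring). Hsf2, a heat shock factor, rose by 0.83 ± 0.05, and the HSP90 activators Ahsa2 and Ahsa1 rose by 0.67 and 0.40. Small heat shock and BAG genes differed among themselves. Hspb1 moved from 11.40, 11.31, 11.31 and 11.38 to 13.20, 13.28, 13.27 and 13.29 (3.76-fold), and Bag3 from 10.84, 10.71, 10.72 and 10.83 to 11.84, 11.80, 11.77 and 11.94 (2.09-fold). Hspb8 rose 2.01-fold and Cryab 1.41-fold, whereas Hspb2, Hspb3 and Hspb6 did not pass the test (-0.05, 0.04 and -0.09). In all, 6 of 14 of these genes rose and 0 fell.

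DNAJ proteins deliver clients to HSP70, and 8 of 17 of their genes rose and 3 fell. Dnajb1 rose 2.42-fold, Dnaja4 2.13-fold, Dnajb4 1.68-fold and Dnajb2 1.67-fold. Dnajb14 went the other way, from 9.45, 9.53, 9.46 and 9.49 to 8.77, 8.90, 8.77 and 8.72 (1.62-fold lower). The TRiC chaperonin and prefoldin, which fold actin and tubulin, had 3 genes up and 3 down of 14, all within 1.15-fold, and 0 of the 3 increases passed after median centring.

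Most proteasome genes rose, by steps of less than 2-fold (log2 fold changes of 0.0375 to 0.605 over all members measured). Of the 14 genes for the 20S core, the proteolytic barrel, 12 rose and 0 fell, with a median of 0.22, and of the 17 measured genes for the 19S cap, which unfolds substrates, 15 rose and 0 fell, with a median of 0.30. Psmd4, a ubiquitin receptor of the cap, had the largest step, from 11.44, 11.41, 11.39 and 11.36 to arrays between 11.97 and 12.03 (0.60 ± 0.03, 1.52-fold). Psmd11 rose by 0.48, Psmc6 by 0.43, and the core subunit gene Psma1 by 0.38. Psmb5, which encodes the chymotrypsin-like subunit that MG132 binds, did not pass the test (0.04), nor did Psma2 (0.04), Psmd7 (0.04) and Psmd8 (0.05). The increases carried through median centring and each left-out array without moving either count by more than 1.5 times.

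Genes that assemble or control the proteasome divided. Zfand5, a proteasome activator, rose 1.84-fold, and Nfe2l1, which encodes the NRF1 factor, rose 1.27-fold, among 9 of 17 that rose. The assembly chaperone genes Psmg2 (1.44-fold lower) and Psmg1 (1.14-fold lower) fell, and median centring raised the 2 lower to 4. The interferon-inducible proteasome subunit genes Psmb8, Psmb9 and Psmb10 did not pass the test (-0.09, 0.06 and -0.03). Of 11 genes of that list, Tapbp, the peptide-loading tapasin, rose by 0.78 and Tap2 by 0.20. The latter overlapped between groups and was lost without vehicle array 2, MG132 array 1 or MG132 array 4, leaving a count of 1.

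VCP is an ATPase that pulls ubiquitinated proteins out of membranes and complexes. Of 21 genes for it and its cofactors, 14 rose and 4 fell. Zfand2a, which encodes an arsenite- and heat-inducible cofactor, moved from 12.52, 12.53, 12.58 and 12.61 to 13.77, 13.78, 13.78 and 13.75 (2.31-fold). Both subunits of the main VCP adaptor rose, Ufd1 by 0.70 and Nploc4 by 0.37, and Vcp itself by 0.23. Ubiquitin-activating and conjugating enzymes gave 4 up and 6 down of 20, within 1.22-fold.

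Autophagy genes rose in 18 of 28 cases and fell in 1 (2 after median centring). Sqstm1, the p62 receptor that carries ubiquitinated cargo into autophagosomes, went from 12.77, 12.65, 12.74 and 12.79 to 13.91, 13.89, 13.96 and 13.91 (2.27-fold). Atg14, a subunit of the lipid kinase that starts autophagosomes, rose 2.25-fold, from 8.81, 9.02, 9.04 and 8.87 to 10.13, 10.17, 10.19 and 9.93. Gabarapl1 rose by 0.73 and Tax1bp1 by 0.59, and the kinase gene Ulk2 fell by 0.48 while its relative Ulk1 rose by 0.43. Of 27 lysosomal genes, 18 rose and 4 fell, with a median of 0.235. Atp6v1h, a proton pump subunit, rose by 0.66, the cholesterol exporter Npc1 by 0.65 and the protease gene Ctsd by 0.47, and the glucuronidase gene Gusb fell by 0.43. The E box CACGTG, a site that TFEB and TFE3 are known to use, was found in the windows of 11 of 24 lysosomal genes and of 9.5% of all genes. Tfe3 rose by 0.47, and Tfeb fell by 0.29.

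Genes of the integrated stress response had a list median of 0.435, and 15 of 23 rose and 2 fell. C/EBP-ATF composite elements, searched as TGATGNAA on both strands, stood in the windows of 8 of the 21 of these genes that have one, of 4 of 11 tRNA synthetase genes and of 3 of 16 amino acid transporter genes, against 3.62% of all genes. Ddit3, Ppp1r15a and Sesn2 rose without a match, and Fgf21 and Jdp2 held one and did not pass the test. The matches of 4 genes that rose are in capitals, and Slc7a11 holds a pair in opposite orientation.
Slc7a11, chr3:50443614-50443719, minus strand: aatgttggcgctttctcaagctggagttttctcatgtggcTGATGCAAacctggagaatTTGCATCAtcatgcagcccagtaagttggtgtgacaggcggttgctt
Atf3, chr1:191183396-191183483, minus strand: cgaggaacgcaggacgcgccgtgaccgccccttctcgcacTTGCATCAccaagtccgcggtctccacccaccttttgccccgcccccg
Chac1, chr2:119351009-119351096, plus strand: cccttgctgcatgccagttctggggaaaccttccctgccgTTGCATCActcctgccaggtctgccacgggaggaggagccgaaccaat
Nupr1, chr7:126625533-126625620, minus strand: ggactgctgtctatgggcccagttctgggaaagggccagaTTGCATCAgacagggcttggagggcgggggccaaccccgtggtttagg

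Beside Ddit3 and Atf3, Trib3, a pseudokinase that CHOP and ATF4 are known to induce, rose from 9.11, 9.21, 9.18 and 9.18 to 10.92, 10.95, 10.93 and 10.98 (3.42-fold). Ppp1r15a, which encodes the GADD34 phosphatase subunit that reverses eIF2alpha phosphorylation, rose 3.27-fold, while its constitutive relative Ppp1r15b fell by 0.29. Nupr1 rose 2.51-fold, Sesn2 2.26-fold and Chac1, a glutathione-degrading enzyme, 2.10-fold. Atf4 itself rose by only 0.32 ± 0.03, from 11.15, 11.16, 11.14 and 11.14 to 11.46, 11.48, 11.49 and 11.44. Atf5, the target of the hairpin in the other line, read 8.68, 8.51, 8.46 and 8.62 with vehicle and 8.75, 8.72, 8.68 and 8.91 with MG132 (0.20 ± 0.05, adjusted p = 0.00759). Its groups touched at 8.68, and the exact two-sided permutation test of 4 against 4 arrays gave p = 0.0571, where 0.0286 is the smallest it can give. The 4 eIF2alpha kinase genes did not pass the test (-0.04 to 0.08).

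Amino acid supply genes followed the same direction. Of 17 synthesis genes 11 rose and 1 fell. The mitochondrial folate enzyme Aldh1l2 rose 2.55-fold, from 9.73, 9.82, 9.79 and 9.79 to 11.20, 11.20, 11.12 and 11.02, and the transaminase Gpt2 rose 2.25-fold. Asns, asparagine synthetase, rose by 0.22 from an already bright 13.3, and Psat1 and Phgdh of the serine pathway did not pass (0.01 and -0.01). Of 21 transporter genes 13 rose and 3 fell. Slc6a9, the glycine importer GLYT1, rose 2.46-fold and the arginine importer gene Slc7a3 2.08-fold. tRNA synthetase genes rose in 12 of 18 cases, led by Cars (0.63), Tars (0.50) and Wars (0.46). None fell, and without vehicle array 3 the count of lower ones was 1, as it was in 4 other settings.

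The endoplasmic reticulum list covers chaperones and the machinery that returns misfolded proteins for degradation. Of its 30 genes 23 rose and 2 fell, and the steps were modest, with a median of 0.19. Without vehicle array 3 or MG132 array 1 the 2 lower became 1. The endoplasmic reticulum stress element stood in the windows of 10 of the 26 genes that have one and of 0.135% of all genes. The chaperone Hspa5, also called BiP, and its partner Dnajc3 each carry 1.
Hspa5, chr2:34771985-34772083, plus strand: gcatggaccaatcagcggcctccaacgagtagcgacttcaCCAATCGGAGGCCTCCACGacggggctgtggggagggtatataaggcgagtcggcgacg
Dnajc3, chr14:118937787-118937885, plus strand: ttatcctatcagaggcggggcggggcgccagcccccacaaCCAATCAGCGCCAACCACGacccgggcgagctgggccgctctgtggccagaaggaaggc

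Hspa5 went from 13.13, 13.17, 13.20 and 13.14 to 13.75, 13.75, 13.78 and 13.72 (0.59 ± 0.03, 1.51-fold), well beyond its spread. Dnajc3 rose by 0.59, Dnajb9 by 0.99 and Herpud1, a ubiquitin-like membrane protein of the degradation machinery, by 0.89. The sensor gene Ern1 rose by 0.46, and the transcription factor gene Xbp1 did not pass (0.04). Mitochondrial chaperones and proteases divided, with 6 up and 5 down of 18. The protease gene Lonp1 rose by 0.64, and Spg7 fell by 0.36.

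NRF2 activates genes through antioxidant response elements, and KEAP1 normally sends it to the proteasome. Of 24 measured genes for quinone, thioredoxin, NADPH and heme handling, 17 rose and 2 fell, with a median of 0.31. The 2 lower became 1 without vehicle array 3, vehicle array 4 or MG132 array 4. The element's core, searched as TGACNNNGC on both strands, was present in the windows of 9 of the 21 of these genes that have one and of 15.2% of all genes. Osgin1, Nqo1 and Blvrb rose without a match. Prdx1 and Blvra held one and did not pass the test, and Ugdh held one and fell. A window of the selenoenzyme gene Txnrd1 and of the glutathione synthesis gene Gclm each held a match.
Txnrd1, chr10:82859074-82859162, plus strand: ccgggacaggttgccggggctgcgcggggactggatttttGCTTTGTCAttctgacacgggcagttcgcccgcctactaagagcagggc
Gclm, chr3:122245383-122245471, plus strand: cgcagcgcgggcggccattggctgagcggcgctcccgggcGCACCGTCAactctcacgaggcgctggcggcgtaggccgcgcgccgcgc

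Nqo1, the quinone reductase, read 8.08, 8.34, 8.23 and 8.16 with vehicle and 9.96, 10.01, 9.92 and 9.86 with MG132 (3.33-fold). Srxn1, sulfiredoxin, rose 3.28-fold and Blvrb, a biliverdin reductase, 2.47-fold. Nfe2l2, which encodes NRF2 itself, rose by 0.38, Txnrd1 by 0.56 and Pgd of the pentose phosphate pathway by 0.66. In glutathione metabolism 8 of 24 genes rose and 4 fell. Both subunits of the rate-limiting ligase rose, Gclc 1.65-fold and Gclm 1.58-fold, and the transferase gene Gsta4 3.16-fold, from 7.32, 7.14, 7.74 and 7.72 to 9.31, 9.21, 9.04 and 9.0. Glrx, glutaredoxin, fell 1.99-fold and Gpx8, a peroxidase of the endoplasmic reticulum, 1.68-fold. Among metal handling genes, the metallothionein genes Mt2 and Mt1 rose by 0.49 and 0.46, and Tfrc, the transferrin receptor, fell 2.13-fold, from 12.12, 12.15, 12.17 and 12.14 to 11.06, 11.08, 11.08 and 10.99. In that list 7 of 17 rose and 5 fell.

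NF-kappaB genes had the highest median of the 46 pathway lists, 0.48. Of 18 measured, 15 rose and 2 fell. Relb rose 2.13-fold, from 8.33, 8.65, 8.52 and 8.33 to 9.49, 9.65, 9.58 and 9.47, and Nfkb2 rose 1.83-fold. The inhibitor gene Nfkbia, which encodes IkappaB alpha, went from 10.24, 10.18, 10.21 and 10.16 to 11.10, 11.03, 11.02 and 11.07 (1.81-fold), and Nfkbie rose 1.77-fold. Tnfaip3, the deubiquitinase A20 and itself a feedback inhibitor, fell by 0.47, and Nfkbiz fell by 0.32. The NF-kappaB consensus site was searched in its classical forms on both strands. It stood in the windows of 2 of 15 genes of this list, of 3 of 19 of the chemokine list and of 0.314% of all genes. The Nfkbia site lies close to the start.
Nfkbia, chr12:55492648-55492716, minus strand: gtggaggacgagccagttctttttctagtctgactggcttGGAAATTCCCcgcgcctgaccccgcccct

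Chemokine and cytokine genes did not move as 1 group, with 9 up and 5 down of 29. Cxcl10, a chemokine for T cells, went from 8.17, 8.41, 8.24 and 8.35 to 10.88, 10.83, 10.86 and 10.78 (5.84-fold). Ccl2, the monocyte chemokine, went from 9.14, 9.36, 9.38 and 9.23 to 11.47, 11.39, 11.38 and 11.53 (4.48-fold), and Ccl5 rose 3.34-fold. Il6, Tnf, Il1b and Cxcl2 did not pass the test (0.09, 0.04, 0.08 and 0.04), and Lif, an interleukin 6 family cytokine, fell 2.08-fold. Interferon-stimulated genes rose in 10 of 22 cases and fell in 1, led by Ifit1 (2.35-fold) and Oasl1 (1.79-fold). Ifnb1, the interferon gene itself, did not pass (-0.03), and neither did Mx1 (0.11) or Irf7 (0.07).

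MAP kinase feedback genes had the lowest median of the 46 lists. They encode phosphatases, Sprouty and SPRED proteins and ETS factors that respond to the ERK pathway and restrain or relay it. Of 20 measured, 14 fell and 3 rose, with a median of -0.44. Etv1 went from 8.43, 8.61, 8.55 and 8.54 to 7.28, 7.34, 7.43 and 7.13 (2.36-fold lower), Etv5 fell 2.17-fold, and Etv4 1.58-fold. Spry4 read 9.63, 9.70, 9.66 and 9.66 with vehicle and 8.49, 8.64, 8.62 and 8.65 with MG132 (2.09-fold lower), Spry2 fell 2.05-fold and Spry1 1.84-fold. Dusp6, an ERK-specific phosphatase, went from 11.33, 11.21, 11.32 and 11.37 to 10.29, 10.39, 10.33 and 10.25 (1.99-fold lower). The 3 that rose were the phosphatase genes Dusp10, Dusp4 and Dusp1, by 0.35, 0.20 and 0.17. The growth factor genes Ereg and Hbegf fell by 0.78 and 0.69, among 11 of 29 growth factor and receptor genes that fell and 5 that rose.

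Immediate-early factors split. Of 24 AP-1, EGR, MAF and NR4A genes 9 fell and 3 rose. Beside Egr1, Ier5l (1.61-fold lower), Srf (1.51-fold lower) and Nr4a1 (1.44-fold lower) fell, whereas Ier3 rose by 0.66 and Jun by 0.28. Fos and Junb did not pass (0.10 and 0.07). Of 25 Kruppel-like, MYC and ID genes 11 fell and 7 rose. The Notch target Hes1 fell 2.14-fold and Id1 1.73-fold, Klf9 rose 1.86-fold and Klf4 1.54-fold, and Myc, unlike Mycn, did not pass (-0.03).

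The YAP, SRF and TGF-beta list holds targets of these pathways and also ligand, receptor and SMAD genes of TGF-beta and BMP signalling. Its genes fell in 19 of 29 cases and rose in 3, with a median of -0.40. Thbs1, the matrix protein thrombospondin-1, went from 13.30, 13.30, 13.32 and 13.32 to 11.92, 12.05, 12.03 and 12.02 (2.47-fold lower). Ankrd1, a nuclear YAP target, went from 13.14, 13.20, 13.23 and 13.15 to 11.89, 12.06, 12.16 and 11.93 (2.25-fold lower). Nuak2 fell 2.42-fold, Inhba 2.05-fold and Ccn2, also called CTGF, 1.89-fold. Grem1, a secreted BMP antagonist, moved the other way, from 8.98, 8.85, 9.04 and 8.96 to 10.74, 10.51, 10.39 and 10.56 (3.02-fold higher).

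**Figure D3:**
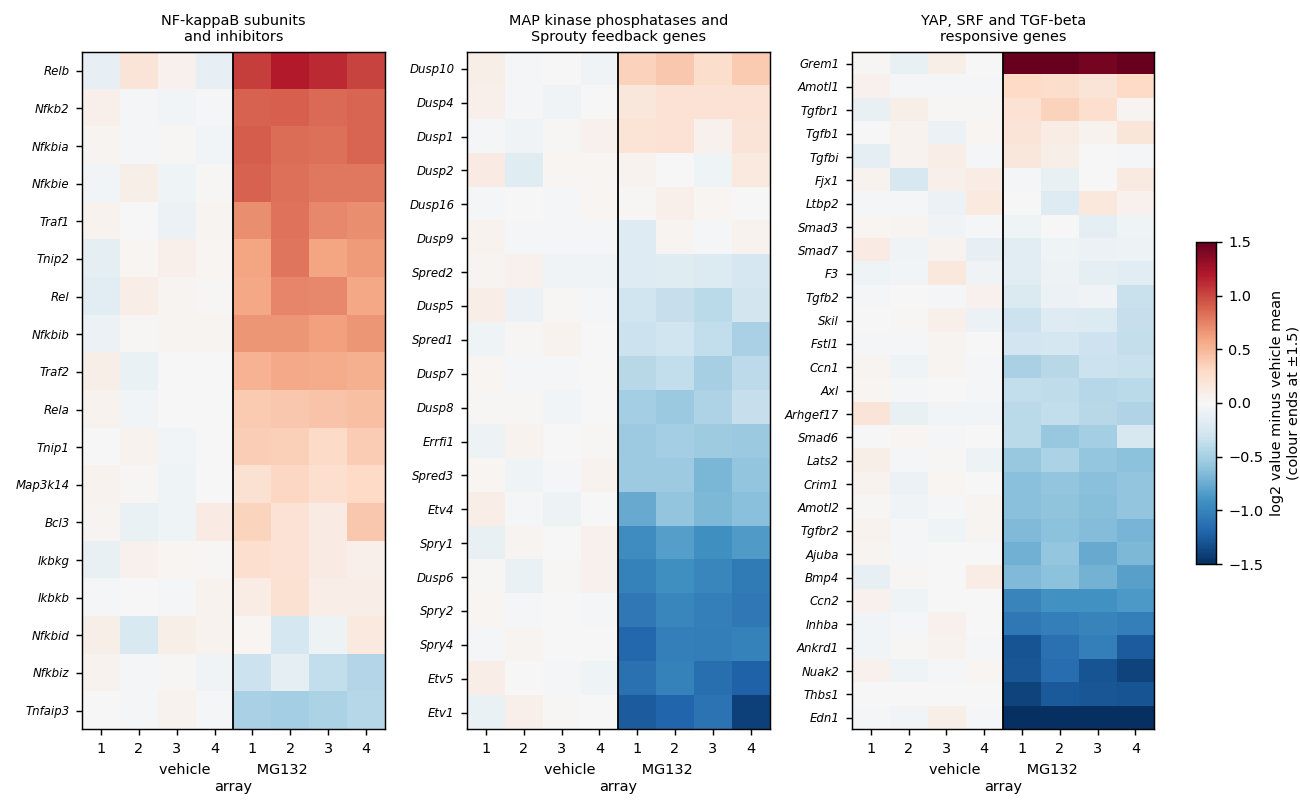
Value of each array minus the gene's vehicle mean (log2, colour from blue for lower to red for higher, ending at 1.5) for the 4 vehicle and 4 MG132 arrays of each gene in 3 lists. The 4 MG132 arrays agree in colour for most genes: red for most NF-kappaB genes, and blue for most feedback and YAP, SRF and TGF-beta genes, with Grem1 (1.59) as a red exception.

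Contractile genes, many of them SRF targets, fell by small amounts in 11 of 22 cases. The myosin light chain gene Myl9 fell 1.52-fold, Cnn2, a calponin, 1.44-fold, and Tagln 1.37-fold. Acta2, smooth muscle actin, fell by 0.12 from a bright 13.3. The 2 that rose, Pdlim7 and Cnn1, became 1 without any of vehicle arrays 1, 3 and 4 or MG132 arrays 1, 2 and 4. The CArG box, which SRF binds, stood in the windows of 4 of 18 genes of this list and of 1.63% of all genes. It stood in those of 0 of 22 genes of the YAP, SRF and TGF-beta list.
Myl9, chr2:156775263-156775352, plus strand: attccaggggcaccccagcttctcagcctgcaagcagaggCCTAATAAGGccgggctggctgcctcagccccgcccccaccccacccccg
Cnn2, chr10:79988504-79988593, plus strand: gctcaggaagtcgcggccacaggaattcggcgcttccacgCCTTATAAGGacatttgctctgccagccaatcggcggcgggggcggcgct

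**Figure D4:**
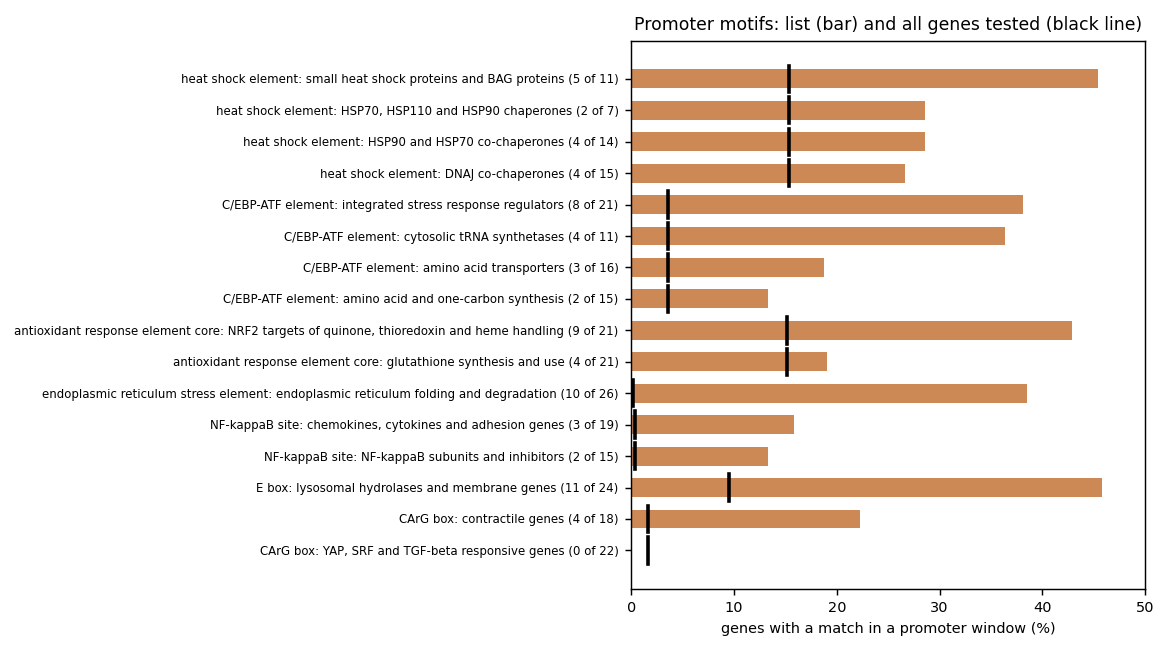
Percent of genes with a match in a promoter window (x axis) for each list (bar) and for all 15614 genes tested that have a window (black line). Only chosen pairs of motif and list are drawn, and all their bars but that of the CArG box in the YAP, SRF and TGF-beta list lie right of the line. They run from 38.5% against 0.135% for the endoplasmic reticulum stress element to 19.05% against 15.2% for the antioxidant element in the glutathione list. Lists not drawn for a motif varied. The heat shock element stood in 6 of 22 YAP, SRF and TGF-beta genes, 4 of 16 MAP kinase feedback genes and 0 of 26 endoplasmic reticulum genes. The antioxidant core stood in 6 of 16 amino acid transporter genes and 2 of 18 contractile genes.

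Matrix genes fell more often than they rose, with 16 of 33 lower and 3 higher. Col1a2 went from 12.24, 12.12, 12.14 and 12.20 to 11.43, 11.47, 11.40 and 11.37 (1.69-fold lower), Col8a1 fell 1.61-fold and Col1a1 1.6-fold. The basement membrane gene Nid1 rose by 0.53, and Fn1, fibronectin, did not pass (0.01). Matrix protease and crosslinking genes went both ways, with 13 lower and 10 higher of 29. Timp3, a protease inhibitor, rose from 11.21, 11.10, 11.19 and 11.22 to 12.46, 12.54, 12.49 and 12.44 (2.47-fold), while Timp1 fell by 0.40. The collagen chaperone Serpinh1, a heat shock protein, rose by 0.34. Adhesion genes fell in 11 of 24 cases and rose in 3 (1 after median centring), with Itga3 1.71-fold and Itga6 1.61-fold lower.

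Survival and cell cycle genes showed opposite members. In the BCL2 family 7 of 15 fell and 3 rose. Bcl2, which blocks apoptosis, went from 11.16, 11.12, 11.07 and 11.14 to 10.05, 10.15, 10.13 and 10.11 (2.02-fold lower), and Bcl2l1, encoding BCL-XL, fell 1.64-fold. Pmaip1, the BH3-only protein NOXA, rose from 7.79, 7.81, 7.81 and 7.79 to 8.72, 8.73, 8.71 and 8.54 (1.83-fold). Cflar, the caspase-8 inhibitor FLIP, fell 1.97-fold and Xiap 1.46-fold, Casp4 rose 1.71-fold, and that list was balanced at 7 and 7 of 22. Of 22 p53 targets 10 rose and 4 fell, and Cdkn1a, Bax and Trp53 were not among the genes tested.

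G1 genes fell in 15 of 27 cases and rose in 5 (2 after median centring). Ccnd1, cyclin D1, went from 13.17, 13.18, 13.14 and 13.15 to 12.15, 12.14, 12.06 and 12.17 (2.04-fold lower), Ccnd3 fell 1.90-fold, E2f8 1.59-fold and Ccne1 1.48-fold. DNA replication genes were divided, 9 up and 8 down of 31, with Rrm2 of nucleotide synthesis 1.29-fold lower, and the 8 became 5 without vehicle array 2. Mitosis genes were evenly split, 9 and 9 of 27, with Cenpf of the kinetochore 1.42-fold higher. After median centring the 9 higher replication genes became 4. Replication genes were 29.0% higher and 25.8% lower, and mitosis genes 33.3% each, against 27.4% and 36.7% in the highest level bin.

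Metabolic and translation genes varied by member. Glycolysis and hypoxia genes fell in 12 of 24 cases and rose in 5, and the 5 became 3 without vehicle array 2, MG132 array 1 or MG132 array 2. Pdk1 fell 1.83-fold, the peptide hormone gene Adm 1.67-fold and the hexokinase gene Hk2 1.43-fold, and Ndrg1 rose 2.20-fold. Cholesterol and fatty acid genes gave 10 higher (4 after median centring) and 9 lower of 25, with the elongase gene Elovl6 1.66-fold lower and Cyp51 1.33-fold higher. Translation factor genes gave 8 higher (5 after median centring) and 4 lower of 24. Ribosome biogenesis genes fell in 11 of 34 cases and rose in 5. The 5 became 3 without vehicle array 2, vehicle array 3 or MG132 array 3, and 1 after median centring. Mitochondrial ribosomal protein genes fell in 35 of 77 cases and rose in 13 (8 after median centring), with a median of -0.095. Complex I genes fell in 9 of 33 (17 after median centring) and rose in 2, which became 0 or 1 without any of vehicle arrays 2, 3 and 4 or MG132 arrays 1 and 3. In the highest level bin 36.7% of genes fell. Before centring, the falls of ribosome biogenesis genes (32.4%) and complex I genes (27.3%) were no more frequent, and those of mitochondrial ribosomal protein genes (45.5%) were. After median centring 17 of 33 complex I genes fell, as did 4624 of all 19938 genes. The share of the highest bin under that setting was not computed, so the comparison holds for the uncentred values only.

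Clock-linked genes and alpha-arrestins included large changes in both directions, 12 higher and 9 lower of 26. Ciart, a repressor of the clock, rose 2.99-fold, from 9.54, 9.51, 9.58 and 9.59 to 10.99, 11.13, 11.17 and 11.25, and Cry1 rose 2.11-fold. Nr1d1, the nuclear receptor REV-ERB alpha, went from 10.87, 10.70, 10.84 and 10.92 to 9.82, 9.79, 9.75 and 9.81 (2.06-fold lower). Per1, Per2 and Clock did not pass (0.01, 0.03 and -0.07). Among tubulin genes Tubb3 rose 1.76-fold and Tuba4a 1.39-fold. In that list 6 of 16 rose and 2 fell, and the 2 became 1 without vehicle array 2 or 4 or MG132 array 1 or 2.

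**Figure D5:**
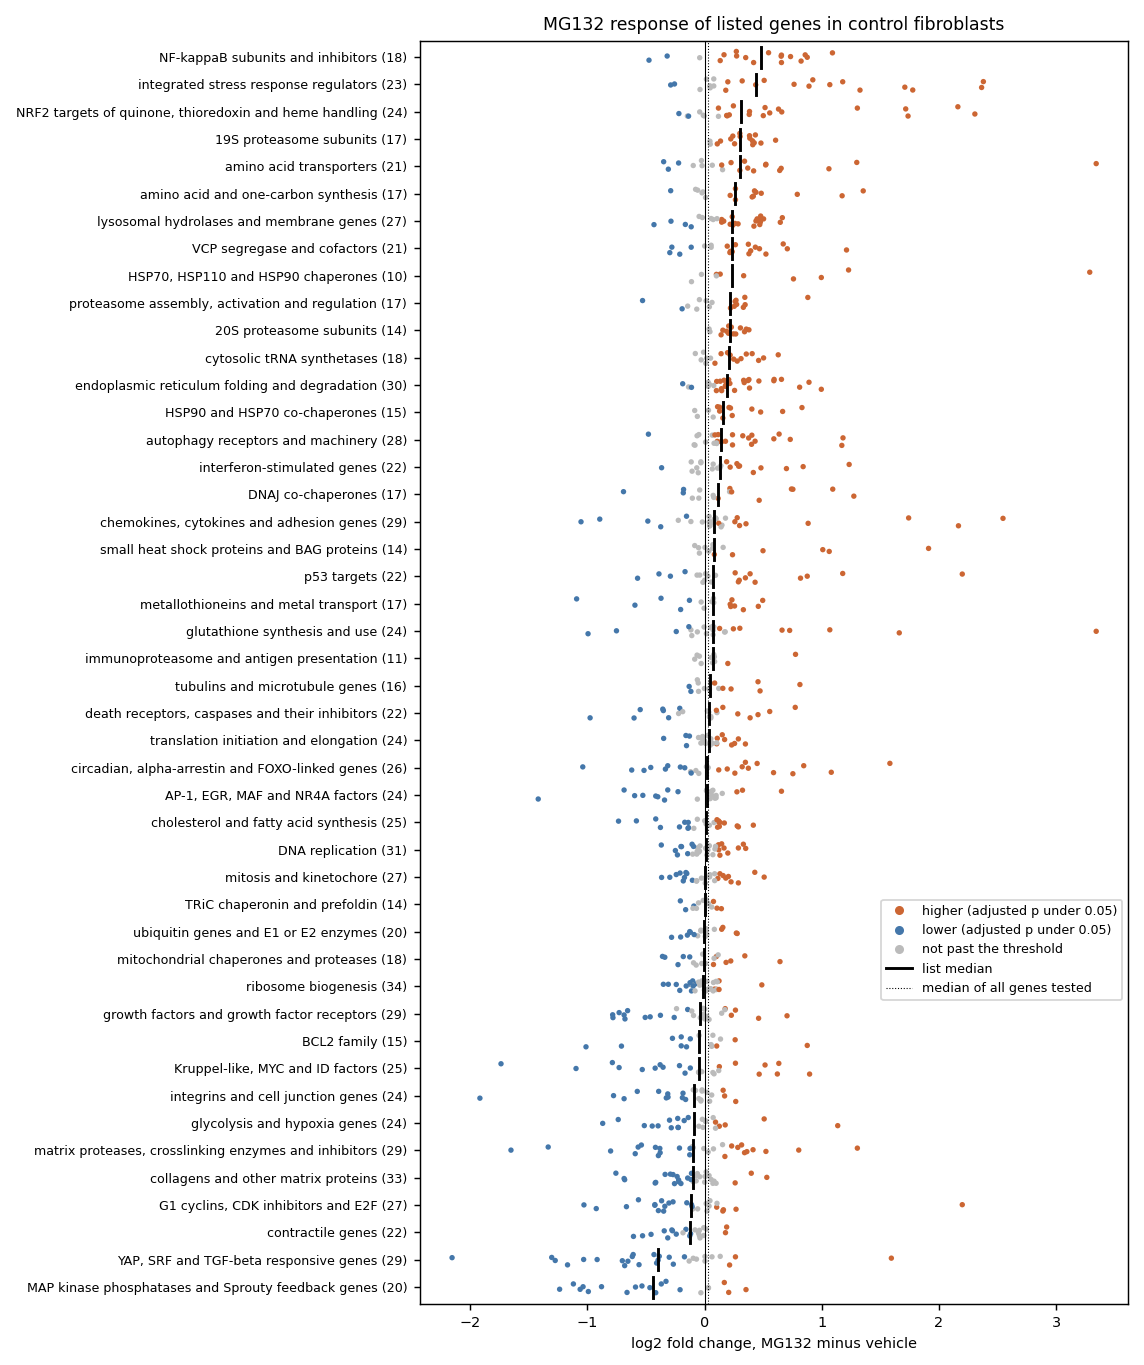
Log2 fold change of MG132 minus vehicle (x axis) for each measured member of 46 pathway lists (number of members in parentheses), ordered by list median; orange points rose, blue points fell and grey points did not pass the test, black bars mark list medians and the dotted line the median of all genes. NF-kappaB genes (0.48) and the integrated stress response (0.435) stand at the top, and the YAP, SRF and TGF-beta genes (-0.40) and MAP kinase feedback genes (-0.44) at the bottom.

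The same exposure of the Atf5-hairpin line, with its own vehicle arrays, allowed the control response to be set beside a second one. Atf5 averaged 8.35 on the vehicle arrays of that line and 8.57 on those of the control line. In the hairpin line 8124 genes changed with MG132 (40.7%). The difference of the 2 responses was called in 14.6% of all genes, with 4.45% more positive and 10.1% more negative in the hairpin line. For MAP kinase feedback genes the difference was positive in 12 of 20 and negative in 1, and Spry4 changed by -0.21 in the hairpin line against -1.06 in control cells. YAP, SRF and TGF-beta genes had a positive difference in 14 of 29 and a negative one in 4, with Ankrd1 at -0.17 against -1.17. NF-kappaB genes had a negative difference in 9 of 18 and a positive one in 2, with Nfkbia at 0.21 against 0.86. Proteasome core genes had a positive difference in 2 of 14 and a negative one in 0, and cap genes a positive one in 1 of 17 and a negative one in 0. Hspa1a rose by 0.84 in the hairpin line against 3.29, and Edn1 changed by -0.28 against -2.15. The MAP kinase, YAP and NF-kappaB lists had medians at the ends of the control response, and the genes named here had changed in control cells. That response enters the difference, so the direction of these differences is not independent of the choice. The lines already differed on their vehicle arrays: the hairpin line averaged 8.88 for Spry4 against 9.66 in control cells, 9.15 against 10.25 for Edn1, 8.115 against 9.06 for Hspa1a, and 11.41 against 10.20 for Nfkbia. Ankrd1 stood at 13.045 against 13.18. The part of these starting levels in the differences was not tested.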

How the data were processed

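RNA of 16 plates was hybridised to Affymetrix whole-transcript arrays, 1 plate per array, in 4 groups of 4; groups and replicate numbers came from the sample titles. The authors deposited log2 intensities of probe sets. The submitters' processing notes name RMA and Partek; their versions, and the annotation used, were not given in the sources used here. RMA makes the distributions of the arrays alike, so a general rise or fall over most genes would not show, and changes of dim probe sets are compressed. No detection calls were used, and the number of arrays limits the precision.

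Of 35556 probe sets, 21789 carried exactly 1 gene symbol in the platform table, and the brightest of each gene over 16 arrays was kept, which left 19938 genes (999 had several). Group means were fitted by limma 3.58.1 (lmFit, then eBayes; R 4.3.3) across the 16 arrays, unfiltered and without a block, and tests were two-sided, with 12 residual degrees of freedom and 4.125 from the prior. The Benjamini-Hochberg adjustment ran over the whole set of genes, with a threshold of 0.05. Errors after ± are standard errors of this fit, with 4 arrays a side. In simulated data 200 of 19938 genes were changed, in equal numbers at 1.25-fold and 1.5-fold, with independent normal noise for each gene. The test of the control response called 76.0% at 1.25-fold and 100.0% at 1.5-fold, along with 14 unchanged genes. The real arrays had 35.8% of genes called and a within-group gradient with 37.77% of the variance within groups, so these rates need not hold for them.

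The genes and lists were chosen with earlier results of these data known. Named genes are the 12 largest increases and 12 largest decreases that passed the test with arrays that do not overlap (skipping gene models, clones and small RNAs), from each list up to 6 members with the smallest p, members that moved against their list and a stress panel. Members named with values that did not pass, and a few others in the text, were chosen after their values were seen. Promoter windows came from RefSeq, build GRCm38.p6, and a printed stretch holds only bases before the start. Genes may sit in several lists. Alternatives were median centring, a second quantile normalization, 2 filters on dim genes, keeping every probe set, averaging the probe sets of a gene, fitting the compared groups alone, no moderation, a robust prior with a trend, weights per array, a minimum of 1.5-fold, a block for the replicate number, leaving out each control-line array and leaving out 4 of the 5 arrays lowest on a within-group gradient. Python 3.11.15 and matplotlib 3.10.9 drew the figures.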

Additional observations from a re-analysis of the deposited data

Results flagged for a closer look

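Among 64 groups of 4 arrays checked over 32 leading and panel genes, 2 held an array far from the other 3: Psmd12 on vehicle array 1 (12.35) and Pmaip1 on MG132 array 4 (8.54). Chance alone would give about 1 in 20 such groups.

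The response to MG132 differed between the lines, by limma's test of the difference at an adjusted p under 0.05, for 22 of the same 32 genes. Over all genes the share was 14.6%. Most of the 32 genes were chosen for a large response in control cells, which enters the difference, so neither the number nor the direction of these differences is independent of that choice. The response was lower in the hairpin line (hairpin minus control, log2) for Hspa1a (-2.445), Ccl2 (-1.62), Nqo1 (-1.245), Prl2c5 (-1.15), Slc7a11 (-0.9425), Cxcl10 (-0.94), Ddit3 (-0.5675), Pmaip1 (-0.5475), Hspb1 (-0.5075), Trib3 (-0.3725) and Atf3 (-0.17). It was higher for Gadd45a (0.1575). Among genes that fell in control cells the difference was positive for Cldn1 (2.0075), Edn1 (1.87), Mycn (1.8325), Kcnf1 (1.27), Cyp1b1 (0.6375), Arsj (0.465), Plau (0.36), Klhdc8a (0.335) and Prss23 (0.27), and negative for Egr1 (-0.835). Several of these genes started from another level in the hairpin line. On the vehicle arrays Cldn1 averaged 6.17 there against 11.125 in control cells, Mycn 7.50 against 9.525, Kcnf1 6.92 against 8.98 and Edn1 9.15 against 10.25. Egr1 (10.28 against 9.105), Ccl2 (12.455 against 9.28), Nqo1 (11.57 against 8.20), Prl2c5 (9.12 against 6.42) and Cxcl10 (9.95 against 8.29) started higher. The part of these starting levels in the differences was not tested.

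Probe sets with several gene symbols or none were outside the comparison of genes. Of these 13767, 2696 changed in control cells by the same test and 99 by at least 2-fold, 91 higher and 8 lower.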

How the results depend on the processing

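After median centring 2150 genes rose and 4624 fell; with every probe set kept, 5204 rose and 4782 fell. For the MG132 response in control cells, a test against a 1.5-fold minimum left 268 changed genes (111 higher, 157 lower) and 24 genes whose response differed between lines (16 higher and 8 lower in the hairpin line). Leaving out each control-line array in turn gave 6368 to 7106 changed genes, 2883 to 3513 higher, 3485 to 3799 lower, and 2382 to 3387 that differed between lines (762 to 986 higher, 1620 to 2401 lower). Same-numbered control-line arrays correlated at 0.03154 to 0.3347 in their deviations from the group means, and arrays of different numbers at -0.3968 to 0.4103. The labels do not call the numbers pairs, and the main fit had no block. With the replicate number as a block 3341 genes rose and 3726 fell. Eif4e (-0.16 on its brightest probe set) turned to 0.0017 with the mean of its probe sets, so its fall was not shared by all of them. Of 399 named genes past the threshold, 342 stayed past it under every alternative but the 1.5-fold minimum, which 89 passed. The largest losses were 31 genes with only the groups compared, 30 without 4 of the 5 arrays lowest on a gradient within groups (left out were control MG132 array 4, vehicle arrays 1 and 4 and hairpin-line vehicle array 1; hairpin-line MG132 array 2 was kept) and 29 after median centring. Dim probe sets had few calls, and the tested changes of genes near background are limited by their signal.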
